A study of Mus musculus with 6 samples.

Results

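The genes described here are 43 genes that act in mitosis and in the G2 phase before it, in RNA of forestomach epithelium from mice. They were chosen by name, with earlier results of these data known. A probe belonged to the set where the gene name in the scanner files was one of the 43. Older names were accepted for Cdk1, Ndc80 and Nuf2. All 43 genes were on the array, through 70 probes, and all 43 were among the 20565 genes tested. For description they were divided into kinetochore and checkpoint genes (11), kinesins and spindle genes (9), kinases and cyclins (9), cytokinesis and chromosomal passenger genes (7), and genes of anaphase, chromosome structure and mitotic transcription (7).

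RNA came from 3 control samples, of K5-CreER mice, and 3 mutant samples, of mice with K5-CreER together with Rosa26Sox2/Sox2, each labelled a biological replicate. K5-CreER is a tamoxifen-dependent Cre recombinase driven from the keratin 5 promoter, which is active in the basal cells of stratified epithelia, and Rosa26Sox2/Sox2 denotes Sox2 inserted at Rosa26 on both homologues. Both groups were a mixture of 129/Sv and C57/BL6, received 2 doses of tamoxifen at 7 weeks and were 12 weeks old by the labels, so that the recombinase and the drug are shared by both groups and the transgene is not. Each sample was hybridised in Cy5 to its own array against Cy3-labelled Universal Mouse Reference RNA, a pool of 11 mouse cell lines, and no array had the dyes swapped. The sheets were measured as bulk RNA, and the share of recombined cells is not given in the labels. Every value below is a log2 ratio of sample over reference, and every difference is mutant minus control on that log2 scale.

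A dividing cell first accumulates cyclin B with its kinase Cdk1, then condenses its chromosomes and attaches them to spindle microtubules through kinetochores, while the spindle checkpoint delays separation until every kinetochore is attached. The anaphase-promoting complex then releases the sister chromatids, and a contractile ring divides the cell. In a stratified epithelium these genes are mainly transcribed in dividing cells of the basal and lowest suprabasal layers. Many of them are switched together in G2 by the transcription factors FoxM1 and B-Myb with the MuvB complex.

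The arrays did not form 2 even groups of 3. On control 3, 62.6% of 41174 probes were well above background, against 73.1% to 76.2% on the other 5 arrays, and its median signal over background was 4.66, against 11.3 to 12.4. Control 3 was alone on its slide and on its scan day, controls 1 and 2 shared a slide, and the 3 mutants shared another, so the slide and the genotype cannot be told apart. Controls 1 and 2 differed little across all genes (scaled median absolute deviation of the log2 difference 0.16), as did mutants 2 and 3 (0.10), whereas the other pairs of arrays ranged from 0.33 to 0.73. All 6 were kept as separate samples, as labelled. The labels do not say that each came from its own animal; if a close pair shared a source, n = 3, the SDs and the p-values below would overstate the replication. Results are given with and without control 3. Sox2 itself had log2 ratios of 6.24 ± 0.15 in controls and 5.82 ± 0.14 in mutants (SD, n = 3 each), a difference of -0.43 (SE 0.14, limma, adjusted p = 0.143). The array holds 1 Sox2 probe, which thus showed no higher Sox2 in mutants. Whether the transgene holds the sequence of this probe is not given in the labels, so the presence of the transgene could not be checked with it. The Rosa26 transcript Gt(ROSA)26Sor was 12.9-fold lower in mutants (adjusted p = 0.00116). Squamous keratins were far above the reference, with Krt5 at 3.62 ± 0.08 in controls and 3.20 ± 0.24 in mutants (SD, n = 3 each).

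The mitotic genes were higher in the mutant sheets as a body. Each of the 43 differences was positive; their median was 1.22 and they ranged from 0.54 for Cdca8 to 1.91 for Cenpa, which corresponds to folds of 1.45 to 3.77. Over all genes tested, 50.6% had a positive difference and the median was 0.01. For each of the 43 genes the 3 mutant arrays lay above the 3 control arrays, an order found for 19.6% of all genes tested (37.7% had the groups apart in either direction). A difference over 1 log2 unit was measured for 31 of the 43, against 3.93% of all genes. In bulk RNA, more cells in mitosis, more transcript per dividing cell and another mix of cell types cannot be told apart. Nor can the genotype and the slide, which the 3 mutants shared.

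Few single genes passed the test over the whole array. Kif4 and Hmmr passed the adjusted threshold of 0.05 (limma, Benjamini-Hochberg over 20565 genes), which is 2 of 43 where 2.83% of all genes passed in either direction and 1.4% passed as higher. At an unadjusted p under 0.05 the count was 41 of 43, against 23.8% of all genes, and at an adjusted p under 0.1 it was 14 of 43, against 7.72%. Adjusted p-values of the members ran from 0.021 to 0.22 with a median of 0.126. The standard errors ran from 0.11 to 0.63 with a median of 0.34, beside a median difference of 1.22. The controls had a median SD of 0.64 over the members and the mutants one of 0.26. With 3 arrays a group the exact two-sided permutation test gave p = 0.1 for every member, the smallest it can give.

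**Figure D1:**
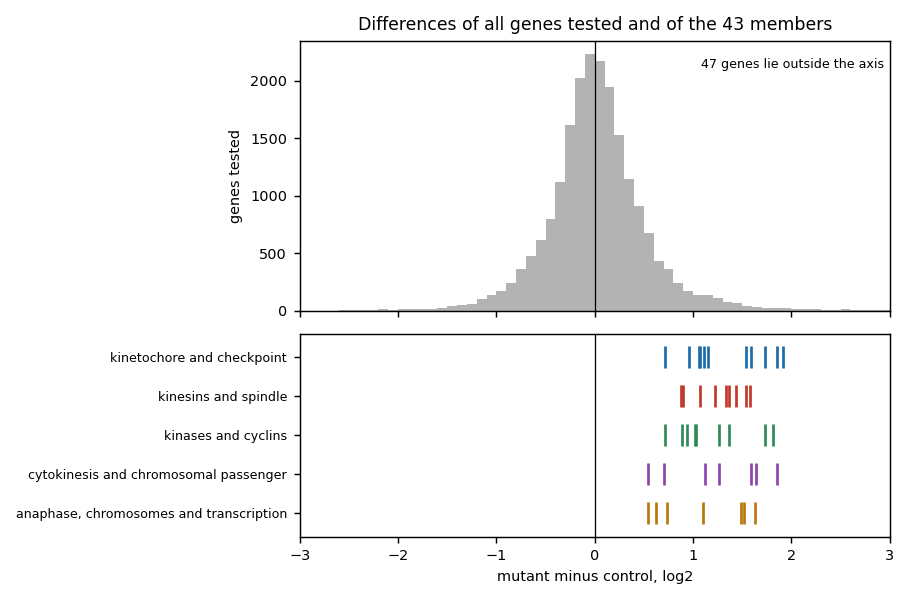
Upper panel: number of genes tested (vertical axis) by mutant minus control difference (log2, horizontal axis), for 20565 genes of which 47 lie outside the axis. Lower panel: each of the 43 members as a tick at its difference, by subgroup; all 43 lie to the right of 0, between 0.54 and 1.91.

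Control 3 stood apart from the other controls. It was the lowest of the 6 arrays for 42 of 43 members; the exception was Cdca8, for which control 2 was lowest. Across all genes, 51.7% were lower on control 3 than on both controls 1 and 2. The median over members of control 3 minus the mean of controls 1 and 2 was -1.11, with a range from -2.24 for Ect2 to 0.28 for Cdca8, while controls 1 and 2 differed from each other by a median of -0.01. Mutant 1 was the highest of the 6 arrays for 41 members, the exceptions being Cdc25c and Foxm1, and lay above the mean of mutants 2 and 3 by a median of 0.44. The medians over members were -1.98, -1.94 and -2.97 in controls 1 to 3 and -0.76, -1.21 and -1.15 in mutants 1 to 3. Both group means were below 0 for every member, meaning that after normalization the sample signal lay below that of the reference pool.

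Without control 3 the differences were smaller and the calls more numerous. The median over members fell to 0.83, with a range of 0.35 to 1.33, and all 43 differences remained positive, against 47.4% of all genes. Then 19 of 43 members passed (limma, adjusted p under 0.05), all higher, against 7.21% of all genes in either direction and 3.18% as higher. These were Bub1b, Mad2l1, Nuf2, Spc25 and Cenpa of the kinetochore and checkpoint genes, Kif20a, Kif2c, Kif4, Nusap1, Hmmr and Ckap2 of the spindle genes, Ccna2, Ccnb1, Ccnb2 and Cdc25c of the kinases and cyclins, Cdca8 of the cytokinesis genes, and Cdc20, Espl1 and Mki67 of the last group. By contrast, leaving out control 1, control 2, mutant 2 or mutant 3 left no member past the threshold, and leaving out mutant 1 left Kif4 and Hmmr. The shift was in the sample channel: the median difference of the members there, after loess and Aquantile scaling, was 1.21 with all 43 positive, against -0.05 in the reference channel with 29 of 43 negative.

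**Figure D2:**
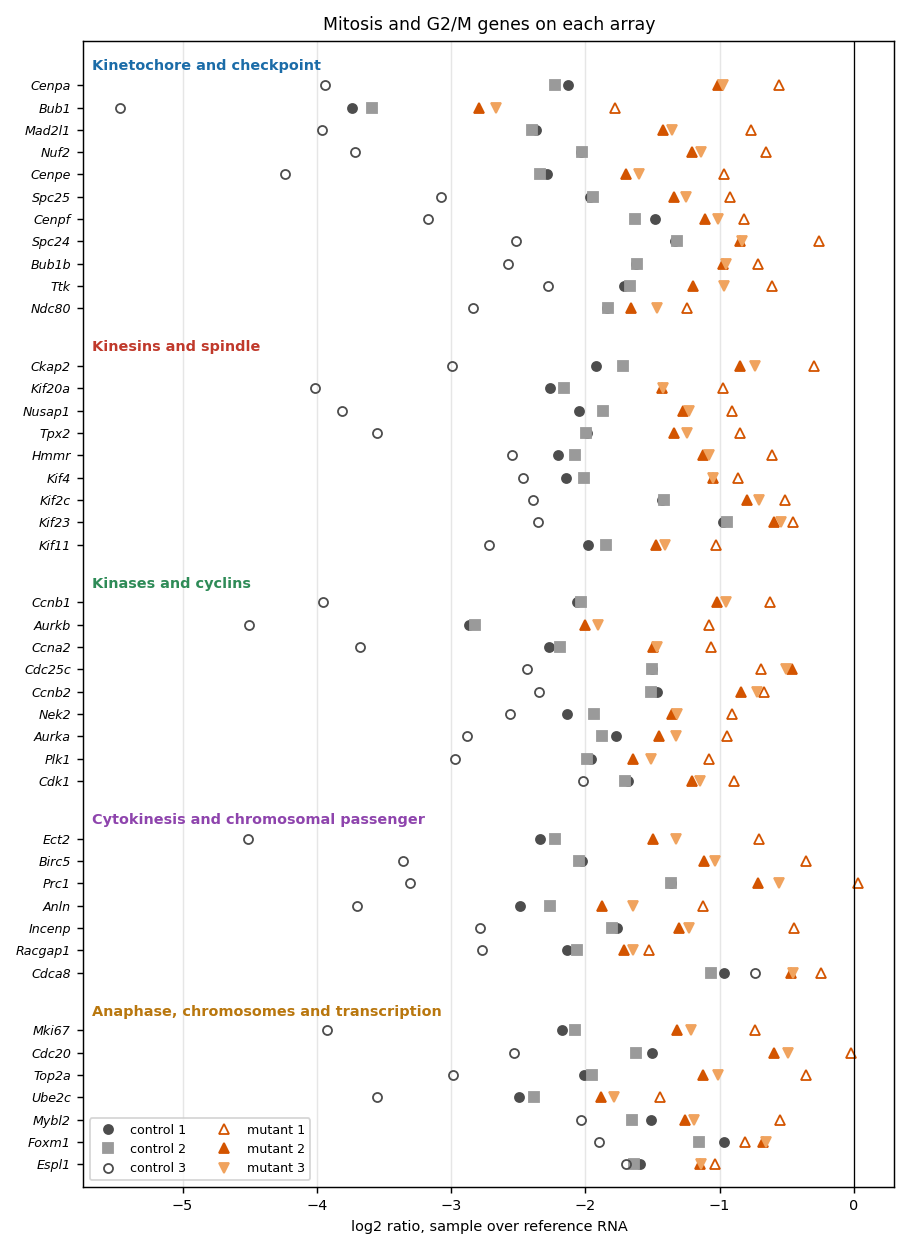
Log2 ratio of sample over reference (horizontal axis) for each of the 43 members (vertical axis, by subgroup), with 1 point per array: circles and squares for controls, triangles for mutants. For every gene the 3 mutant points lie to the right of the 3 control points, and the open circle of control 3 is the leftmost point for 42 of 43.

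The promoters of the members held the motifs of G2/M genes more often than promoters at large. Promoters of 35 of the 43 genes were in the RefSeq table (build GRCm38.p6), and the 250 bases upstream of the first start listed for a gene were searched on both strands. The sequence CCAAT, the core bound by NF-Y, was present in 27 of 35 (77.1%), against 34.5% of 27025 genes of the table, and at 2 or more places in 17 of 35, against 2849 of 27025. TTTGAA or TTTAAA, the cores of the cell cycle genes homology region through which MuvB complexes bind, was present in 16 of 35 (45.7%), against 25.5%. Both kinds of motif were present in 40.0%, against 9.0%. No CCAAT match overlapped a TTTGAA or TTTAAA match, and 42 of the 59 CCAAT matches began in the last 100 bases before the start. A match is a string of letters and not a measured binding site.

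Shown are the 150 bases just upstream of the annotated start for the only 2 members that passed, Kif4 and Hmmr, and for Cenpa and Ccnb1, the members with the largest difference in the kinetochore and the cyclin groups. Each reads 5′ to 3′ on the gene's strand, with matches in capitals (CCAAT, or ATTGG where it lies on the other strand, and TTTAAA). The windows are chrX:100625915-100626064 on the plus strand for Kif4, chr11:40733438-40733587 on the minus strand for Hmmr, chr5:30666736-30666885 on the plus strand for Cenpa and chr13:100786487-100786636 on the minus strand for Ccnb1.
Kif4: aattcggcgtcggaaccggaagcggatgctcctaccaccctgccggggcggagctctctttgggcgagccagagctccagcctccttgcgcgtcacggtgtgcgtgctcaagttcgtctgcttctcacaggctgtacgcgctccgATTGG
Hmmr: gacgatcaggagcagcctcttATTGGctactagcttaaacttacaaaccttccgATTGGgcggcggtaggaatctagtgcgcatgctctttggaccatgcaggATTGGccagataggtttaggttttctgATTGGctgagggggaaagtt
Cenpa: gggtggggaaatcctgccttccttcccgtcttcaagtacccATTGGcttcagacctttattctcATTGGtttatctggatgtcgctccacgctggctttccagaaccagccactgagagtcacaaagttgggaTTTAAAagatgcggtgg
Ccnb1: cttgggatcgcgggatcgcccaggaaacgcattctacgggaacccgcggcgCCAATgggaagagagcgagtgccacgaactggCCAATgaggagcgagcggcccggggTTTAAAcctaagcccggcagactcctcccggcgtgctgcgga

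Hmmr held 4 CCAAT matches in this window and a further match 172 bases before the start, and neither TTTGAA nor TTTAAA. Kif4 held a match 5 bases before the start and another that began 152 bases before it. The latter is cut by the edge of the window, and its last bases are left in lower case. Cenpa and Ccnb1 each held a pair of CCAAT matches followed by TTTAAA, which began 17 bases before the start in Cenpa and 42 bases before it in Ccnb1. The 8 searched members without CCAAT (among them Mad2l1, Ndc80, Nuf2, Nusap1 and Mybl2) had a median difference of 1.35, and the 27 with it one of 1.11. The 16 members with TTTGAA or TTTAAA had a median of 1.30, and the 19 without them one of 1.16. Differences between these medians were not tested. Among the further mitotic genes listed below, 52.1% of 94 promoters held CCAAT, and among DNA replication genes 55.9% of 34. TTTGAA or TTTAAA was present in 30.9% and 17.6% of these promoters, against 25.5% of all genes of the table.

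**Figure D3:**
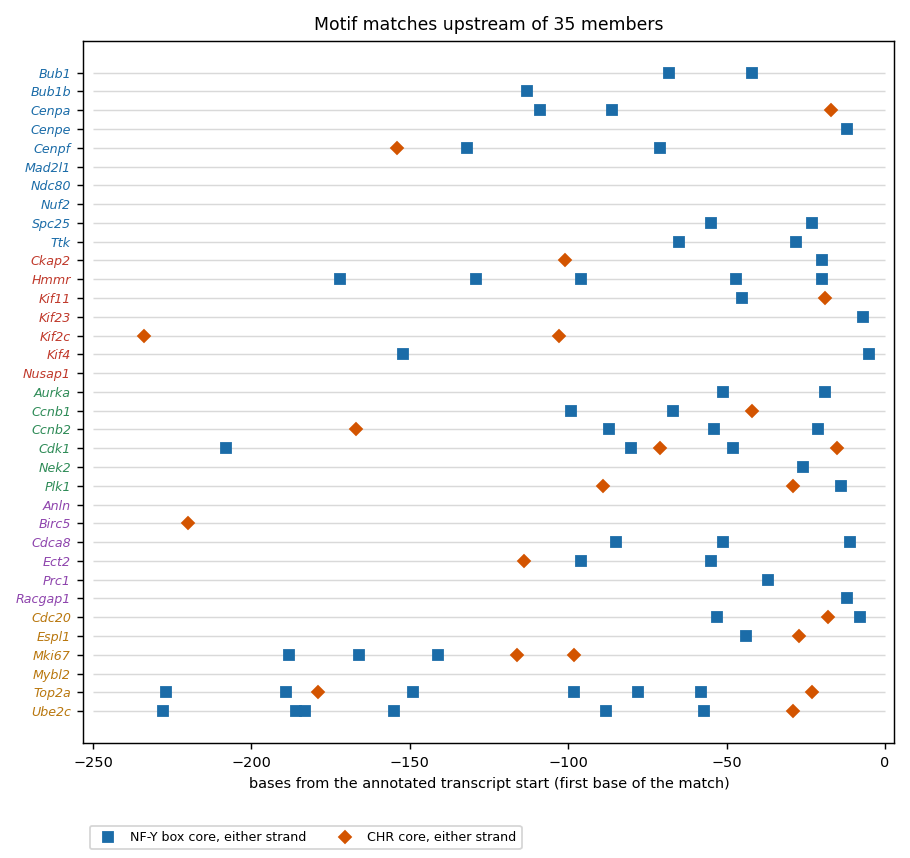
Position of motif matches in the 250 bases upstream of the annotated start (horizontal axis, bases; first base of the match) for 35 members (vertical axis). Squares mark the NF-Y box core on either strand and diamonds a CHR core, meaning the cell cycle genes homology region; 42 of 59 squares begin within 100 bases of the start.

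Kinetochore and checkpoint genes build the attachment site of the chromosome and signal when it is unattached. All 11 were higher in mutants, with a median difference of 1.16 (0.78 without control 3); none of the 11 passed the threshold, and 10 had an unadjusted p under 0.05. Cenpa, the histone H3 variant that marks the centromere, had the largest difference of any member. Its log2 ratios were -2.13, -2.23 and -3.94 in controls 1 to 3 and -0.56, -1.01 and -0.98 in mutants 1 to 3. The groups were separated by 1.12 between the lowest mutant and the highest control, and control 3 lay far below the other controls. The difference was 1.91 (SE 0.49, adjusted p = 0.0979), and without control 3 it was 1.33 with an adjusted p of 0.0218.

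Ndc80, the microtubule-binding subunit of the outer kinetochore complex that bears its name, had the smallest difference in this group. Its ratios were -1.84, -1.83 and -2.84 in controls and -1.24, -1.66 and -1.47 in mutants. The groups came within 0.17 of each other, mutant 2 lying closest to controls 1 and 2. The difference was 0.71 (SE 0.30, adjusted p = 0.216). The other 3 subunits of the complex, Nuf2, Spc24 and Spc25, had differences of 1.59, 1.08 and 1.16. A second Nuf2 probe, well above background on none of the arrays and not tested, had one of 0.09. Ttk, the Mps1 kinase that starts checkpoint signalling, had the smallest p of the group: its ratios were -1.71, -1.67 and -2.28 in controls and -0.61, -1.20 and -0.96 in mutants, with a difference of 0.96 (SE 0.23, adjusted p = 0.0865). Its probe was well above background on 5 of the 6 arrays.

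Of the remaining checkpoint genes, the kinase gene Bub1 had a difference of 1.85, the inhibitory checkpoint subunit gene Bub1b 1.06 and Mad2l1, whose protein holds Cdc20 inactive, 1.73. Cenpe, a kinetochore motor, had 1.53 and Cenpf, a large kinetochore and nuclear matrix protein, 1.11. Bub1 and Cenpa each had a second probe that did not follow the first. For Bub1 it gave ratios of 0.09, 0.12 and 0.54 in controls and -0.16, 0.03 and 0.05 in mutants, a difference of -0.28 in the opposite direction, from a site further toward the 3′ end of the gene (chromosome 2, 127626326 to 127626385, build mm9 by the file headers, against 127626988 to 127627047 for the first). For Cenpa the second probe, designed on another transcript record, had a difference of 0.23. Which probe reports the main transcript was not tested.

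Kinesins are motors that move along microtubules, and the other genes of this group bundle or nucleate the spindle. All 9 were higher in mutants, with a median difference of 1.34 (0.85 without control 3), and the 2 calls of the whole set were here. Kif4, the chromokinesin that shapes mitotic chromosomes and the central spindle, rose 2.33-fold. Its ratios were -2.15, -2.01 and -2.47 in controls and -0.87, -1.05 and -1.05 in mutants. The 3 mutants were close together, and control 3 lay 0.39 below the mean of the other controls, against 1.11 in the median of the members. The difference was 1.22 (SE 0.16, adjusted p = 0.0213), and 1.09 with an adjusted p of 0.0146 without control 3. A second Kif4 probe, which overlaps the first on chromosome X (97922085 to 97922145 against 97922126 to 97922185, build mm9), had a difference of 1.08.

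Hmmr, which encodes a hyaluronan receptor that also acts in spindle assembly, rose 2.53-fold. Its ratios were -2.20, -2.08 and -2.55 in controls and -0.61, -1.12 and -1.08 in mutants. Controls and mutants were 0.96 apart at their closest, and mutant 1 was the highest array. The difference was 1.34 (SE 0.20, adjusted p = 0.0309), and 1.20 with an adjusted p of 0.0311 without control 3. On control 3 the probe was not well above background (raw sample signal 71, against 284 and 345 on controls 1 and 2), so its ratio there is a bound. The size of the Hmmr difference depended on the processing: it was 2.16 with the processed signals and 1.92 in the deposited table, without passing in either. Both calls were lost when either of controls 1 and 2 or either of mutants 2 and 3 was left out, with adjusted p-values from 0.0774 to 0.116 for Kif4 and from 0.106 to 0.126 for Hmmr. With the near-identical pairs of arrays averaged, no gene on the array passed and the adjusted p of Kif4 was 0.433 (differences 1.32 for Kif4 and 1.49 for Hmmr).

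Ckap2, a microtubule-associated protein of the spindle poles, had the largest difference of the group, from ratios of -1.92, -1.72 and -2.99 in controls and -0.30, -0.85 and -0.74 in mutants. That difference was 1.58 (SE 0.36, adjusted p = 0.0758), and 1.19 with an adjusted p of 0.0344 without control 3. Kif11, the motor that pushes spindle poles apart, had the smallest, from ratios of -1.98, -1.85 and -2.71 in controls and -1.03, -1.47 and -1.41 in mutants. Its difference was 0.88 (SE 0.26, adjusted p = 0.126), with no overlap of the groups. Between these lay Kif20a (1.53) and Kif23 (0.90), motors of the central spindle, Kif2c (1.07), which takes tubulin off microtubule ends, Tpx2 (1.37), which activates Aurora A on the spindle, and Nusap1 (1.44), a microtubule bundler. The second Nusap1 probe had a difference of 0.25 and overlapping groups.

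**Figure D4:**
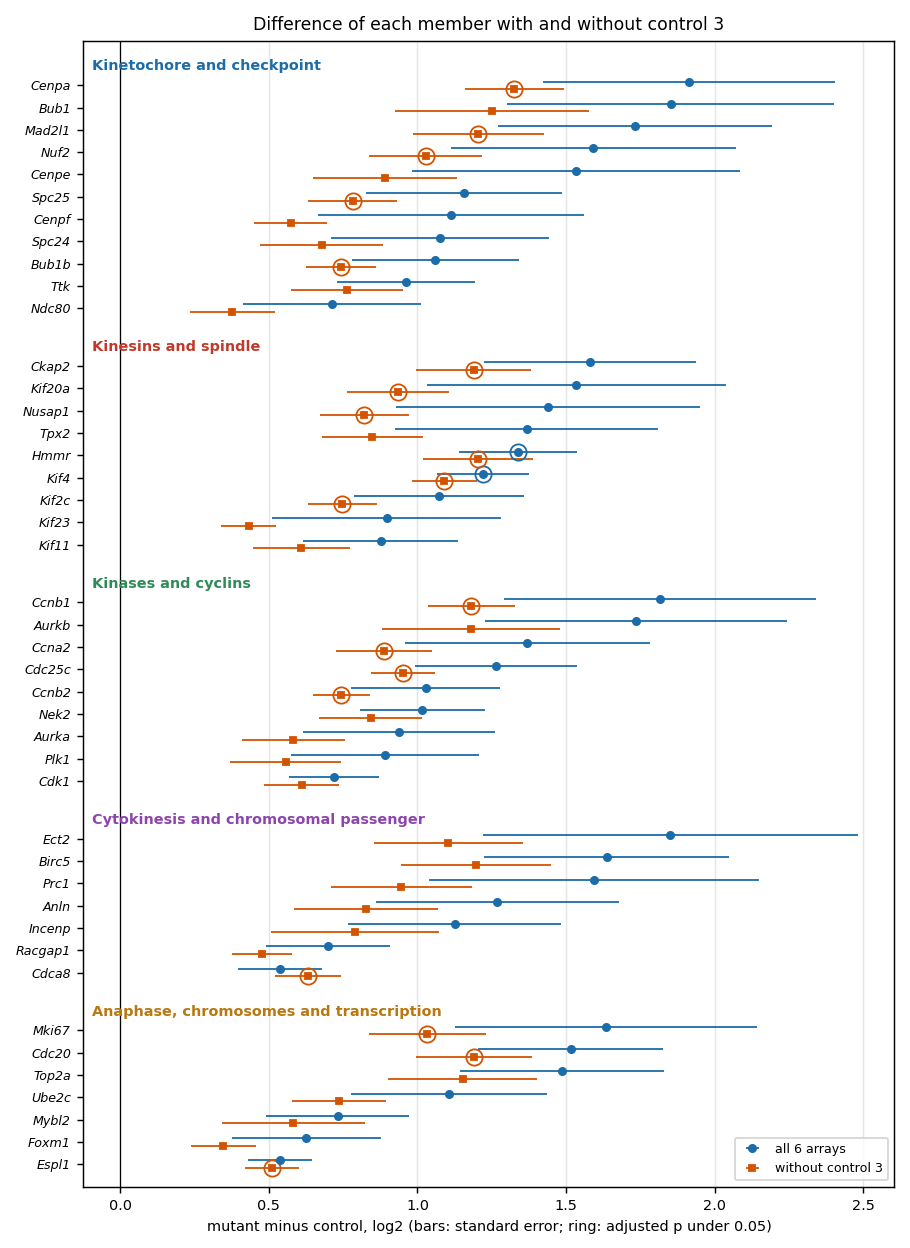
Mutant minus control difference (log2, horizontal axis) of each member with all 6 arrays (blue circles) and without control 3 (orange squares); bars are standard errors and rings mark an adjusted p under 0.05. All points lie above 0; 2 members are ringed with 6 arrays and 19 without control 3.

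Kinases and cyclins drive entry into mitosis. All 9 were higher in mutants, with a median difference of 1.03 (0.84 without control 3), and none of the 9 passed the threshold, although each had an unadjusted p under 0.05. Ccnb1, the gene of cyclin B1, had the largest difference. Its ratios were -2.06, -2.03 and -3.96 in controls and -0.62, -1.02 and -0.96 in mutants. Controls 1 and 2 were nearly equal and control 3 lay 1.91 below them, and the groups were 1.01 apart at their closest. The difference was 1.82 (SE 0.53, adjusted p = 0.120), which became 1.18 with an adjusted p of 0.0212 without control 3.

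Cdk1, the kinase that cyclin B activates, had the smallest difference of the group. Its ratios were -1.68, -1.71 and -2.02 in controls and -0.89, -1.21 and -1.15 in mutants. Control 3 lay only 0.32 below the other controls here. The difference was 0.72 (SE 0.15, adjusted p = 0.0668), and a second Cdk1 probe in the same transcript had one of 0.08 with overlapping groups. Nek2, a kinase that separates the centrosomes, had the smallest p, from ratios of -2.13, -1.94 and -2.56 in controls and -0.91, -1.35 and -1.32 in mutants, with a difference of 1.02 (SE 0.21, adjusted p = 0.0641).

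Cdc25c, the phosphatase that removes the inhibitory phosphate groups from Cdk1, had a difference of 1.26; for it and Foxm1 alone among the members, mutant 1 was the lowest mutant. Its second probe, not well above background on control 3, had a difference of 1.12. Cyclin A2 (Ccna2, 1.37) and cyclin B2 (Ccnb2, 1.03) followed cyclin B1. Aurkb, the kinase of the chromosomal passenger complex, had a difference of 1.74, Aurka, its relative at the spindle poles, one of 0.94, and Plk1, which acts at centrosomes, kinetochores and the midzone, one of 0.89. Without control 3, the cyclins Ccna2, Ccnb1 and Ccnb2 and the phosphatase Cdc25c passed and the 5 kinases did not.

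Cytokinesis and chromosomal passenger genes act once the chromosomes have parted, although the passenger complex also corrects attachments before that. All 7 were higher in mutants, with a median difference of 1.27 (0.83 without control 3), and none of the 7 passed. Ect2, the exchange factor that activates RhoA at the division site, had the largest difference. Its ratios were -2.34, -2.22 and -4.51 in controls and -0.71, -1.49 and -1.32 in mutants. Control 3 stood 2.24 below the other controls, the largest such distance among the members. The difference was 1.85 (SE 0.63, adjusted p = 0.155), and 1.104 with an adjusted p of 0.0642 without control 3.

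Cdca8, which encodes borealin of the passenger complex, had the smallest difference of all members and the opposite order of controls. Its ratios were -0.97, -1.06 and -0.74 in controls and -0.24, -0.46 and -0.45 in mutants. Control 3 was the highest control, and the groups were still 0.27 apart. The difference was 0.54 (SE 0.14, adjusted p = 0.0996), and it was larger without control 3, at 0.63 with an adjusted p of 0.0410. Its 2 further probes had differences of 0.22 and 0.04 with overlapping groups, and the mean over the 3 probes gave 0.27 (adjusted p = 0.494). Birc5, the gene of survivin, had the smallest p of the group, from ratios of -2.02, -2.04 and -3.35 in controls and -0.36, -1.12 and -1.04 in mutants, with a difference of 1.64 (SE 0.41, adjusted p = 0.0942). The remaining genes were Incenp (1.13), the scaffold of the passenger complex, Racgap1 (0.70) of the centralspindlin complex, Prc1 (1.59), the bundler of midzone microtubules, and Anln (1.27), the anillin of the contractile ring. On mutant 1 Prc1 reached a ratio of 0.03, the highest value of any member on any array.

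The last group holds genes of anaphase, of chromosome structure and of mitotic transcription. All 7 were higher in mutants, with a median difference of 1.11 (0.74 without control 3), and none of the 7 passed. Mki67, the gene of the proliferation antigen Ki-67 that coats mitotic chromosomes, had the largest difference. Its ratios were -2.17, -2.08 and -3.92 in controls and -0.74, -1.32 and -1.22 in mutants. The lowest mutant stood 0.76 above the highest control. The difference was 1.63 (SE 0.51, adjusted p = 0.134), and 1.03 with an adjusted p of 0.0461 without control 3.

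Espl1, the gene of separase, which cuts cohesin at anaphase, had the smallest difference and the smallest p of the group. Its ratios were -1.60, -1.63 and -1.70 in controls and -1.03, -1.14 and -1.14 in mutants. It was the member with the closest controls, control 3 included. The difference was 0.54 (SE 0.11, adjusted p = 0.0597), and a second, dim Espl1 probe that did not enter the test had one of -0.25. The activators and enzymes of the anaphase-promoting complex, Cdc20 and Ube2c, had differences of 1.52 and 1.11, and Top2a, the topoisomerase that untangles sister chromatids, 1.49. The 2 transcription factors of the set were toward the lower end: Mybl2 (B-Myb) had a difference of 0.73 and Foxm1 one of 0.63, and for Foxm1 the lowest mutant, here mutant 1, was 0.16 above the highest control.

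The medians of the 5 groups thus ran from 1.03 for kinases and cyclins to 1.34 for kinesins and spindle genes, and differences between the groups were not tested.

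The members had further probes. Of 27 further probes, 25 passed the filter on dim probes and 24 of these had a positive difference; 3 of the 25 differed by over 1 log2 unit from the probe that stood for the gene. The position of control 3 differed with detection there. On the 54 member probes well above background on control 3 that array lay below controls 1 and 2 by a median of 1.15 and was lower for 49. For the 14 probes not well above background there the median shift was 0.01 and it was lower for 7. The 14 differences were all positive, with a median of 0.75, against 1.26 for the 54. When each probe was tested on its own, 4 of the 14 passed (of Cdc25c, Cenpe, Hmmr and Top2a) and 2 of the 54, both of Kif4, against 2.72% of 30864 probes. A signal near background on control 3 gives a bound there, so the small shift of these 14 probes is no measurement of its level.

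Further genes of mitosis that are not members were examined by lists. Of 109 measured, 94 had positive differences, the median over all being 0.70 (0.50 without control 3), and 5 passed, all higher. The shares over all genes tested were 50.6% positive, 2.83% passing in either direction and 1.4% passing as higher. Among 35 further kinetochore and centromere genes 33 were positive (median 0.88) and 2 passed: Cenpu and Cenpi, both of the inner kinetochore network, with differences of 1.51 (SE 0.20, adjusted p = 0.0224) and 1.46 (SE 0.27, adjusted p = 0.0495). Mis12 (-0.19) and Hjurp (-0.28) were negative without passing. Among 21 further kinesins and spindle genes 17 were positive (median 0.97), Ckap2l passed with a difference of 1.25 (SE 0.18, adjusted p = 0.0272), and the kinesin gene Kif14 had a difference of -0.71. Among 20 further kinases and regulators 18 were positive (median 0.76), and Melk, a kinase of proliferating cells, and Haspin, which phosphorylates histone H3 at the centromere, passed with 1.13 (SE 0.12, adjusted p = 0.0137) and 1.31 (SE 0.22, adjusted p = 0.0433).

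The lists of structural and of degradation genes had lower medians than the further mitotic lists above, a gap that was not tested. Of 17 condensin and cohesin genes 15 were positive (median 0.46) and none of the 17 passed. At an unadjusted p under 0.05 in limma there were 11, against 23.8% of all genes. The list was uneven. Smc2, Smc4, Ncapd2, Ncapg, Ncapg2 and Ncaph, all of condensin, had differences of 0.93 to 1.41, the last that of Ncaph (adjusted p = 0.0668). The condensin genes Ncapd3 and Ncaph2 had 0.38 and 0.41. Cohesin genes and their regulators ran from -0.46 for Stag2 to 1.17 for Cdca5. Of 16 genes of the anaphase-promoting complex and its regulators 11 were positive (median 0.28), and none of the 16 passed. Among them 8 had an unadjusted p under 0.05 in limma, against 23.8% of all genes. DNA replication and G1/S genes were positive for 39 of 41, with a median of 0.67 (0.53 without control 3). Prim1 and Fen1 passed with 0.65 and 1.01, where 1.4% of all genes passed as higher. None of these 7 calls survived without control 1, control 2, mutant 2 or mutant 3; without control 3 those of Cenpu, Cenpi, Ckap2l, Melk and Prim1 held, and without mutant 1 those of Cenpu, Melk and Haspin. The members' median of 1.22 was above that of each further list, and the difference between the lists was not tested.

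**Figure D5:**
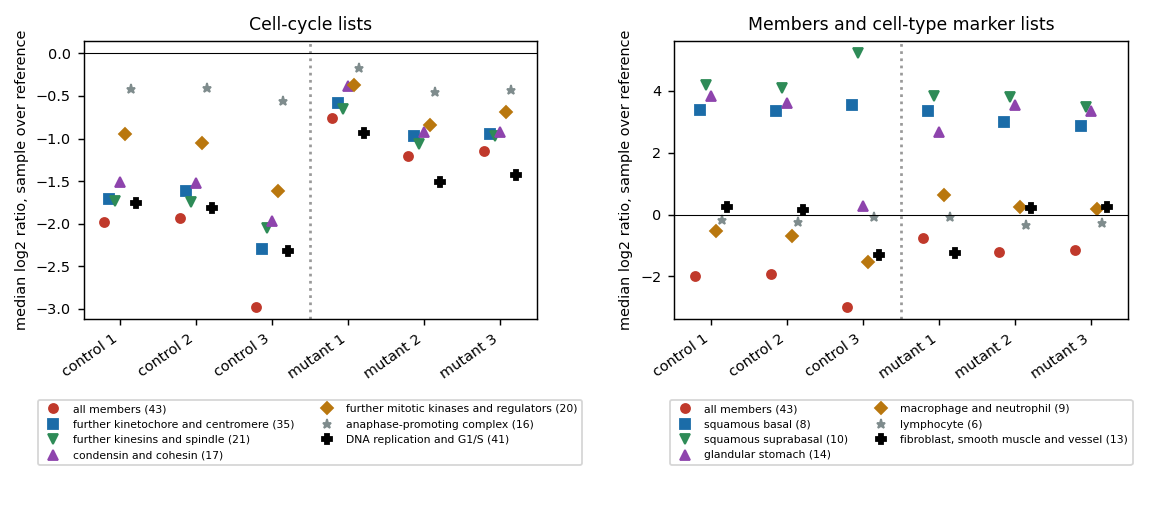
Median log2 ratio of sample over reference (vertical axis) for lists of genes on each of the 6 arrays (horizontal axis), controls left and mutants right of the dotted line. Left: members and further cell-cycle lists, with the members at -1.98, -1.94 and -2.97 in controls and -0.76, -1.21 and -1.15 in mutants; right: members with cell-type marker lists, where glandular stomach markers are at 0.29 on control 3 against 2.66 to 3.82 elsewhere.

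Markers of other cells moved between the arrays as well. Of 11 macrophage and neutrophil markers 9 were measured, and all 9 had a positive difference (median 1.36, or 0.85 without control 3). Their list medians ran from -1.54 to -0.52 in controls and from 0.18 to 0.64 in mutants. Cd68 and Csf1r passed with 1.49 and 0.75, where 1.4% of all genes passed as higher. Both calls were lost without control 1, control 2, mutant 2 or mutant 3 (adjusted p 0.0830 to 0.104 for Cd68 and 0.141 to 0.179 for Csf1r), that of Csf1r also without mutant 1 (0.0683), and the mean over its probes gave 0.45 for Csf1r. Within genes, these markers lay 0.16 lower on control 3 than on controls 1 and 2 in the median, against 1.11 for the mitotic genes. Of the 9 markers, Csf3r and Ngp were well above background on only 3 of the 6 arrays and Camp on 4. A marker that enters only through the mutant arrays is positive by selection, so the count of 9 is no independent result. Camp had ratios of 4.47 on mutant 1 and of 0.54 and 0.57 on mutants 2 and 3. Of 6 lymphocyte markers 3 were positive (median 0.00, list medians -0.24 to -0.08 in controls and -0.34 to -0.08 in mutants). Of 2 erythroid markers both were positive (median 0.79). The part of these cells in the difference of the mitotic genes was not tested.

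Markers of neighbouring tissue set control 3 apart. Glandular stomach markers lay 2.95 lower on control 3 than on controls 1 and 2 in the median of 14 genes, with list medians of 3.82, 3.62 and 0.29 in controls and 2.66 to 3.55 in mutants. Their difference had a median of 0.53 with all arrays and -0.54, with 0 of 14 positive, without control 3. Fibroblast, smooth muscle and vessel markers were lower on control 3 by 2.09 in the median of 13 genes (difference 0.28, or -0.07 without control 3), with list medians of 0.26, 0.16 and -1.30 in controls and -1.24, 0.21 and 0.25 in mutants. Squamous markers mostly ran the other way. The 10 suprabasal genes had median ratios of 4.18, 4.08 and 5.21 in controls and 3.48 to 3.82 in mutants. Their median difference was -1.05 (-0.43 without control 3), and that of the 8 basal genes was -0.49 (-0.33 without control 3). With all arrays 1 of the 10 was positive (Dsc2, 0.19) and 1 of the 8 (Itga6, 0.88). No marker of these 2 squamous lists passed. On mutant 1 the glandular markers also lay below mutants 2 and 3, by 0.60 in the median. The fibroblast, smooth muscle and vessel markers lay 0.17 lower there. All 43 mitotic genes had positive differences with all arrays, without control 3 and without mutant 1, and no fit left out both. Their median was smaller without control 3, the array on which these tissue markers stood furthest apart. The part of these tissues in that change was not tested.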

How the data were processed

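The deposited files were scanner output of 6 2-colour arrays, with Cy5 on the sample and Cy3 on the reference, per the labels. The deposited intensity values were, for both channels, the mean and processed signals and the median background. Per the file headers, Agilent Feature Extraction 10.5.1.1 had written 5 of the files, and version 10.7.3.1 that of control 3; the submitters' processing notes give 9.1. A deposited table of log2 ratios covers the same arrays. It ran as sample over reference, with slopes of 0.978 to 1.17 on the scanner ratios and column medians of 0.024 to 0.059; how it was normalized was not given in the sources used here. Its columns for mutants 1 and 3 matched each other's scanner files best (r = 0.973 and 0.969, against 0.886 and 0.881 with their own), so statements on mutants 1 and 3 follow the scanner files.

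Background was corrected with normexp at an offset of 50, followed by loess within arrays (limma 3.58.1, R 4.3.3). Control spots and outlier spots had no weight and were then left out. Probes entered where the software called the Cy5 signal well above background on 3 or more of 6 arrays, and the brightest of them in Cy5 stood for its gene. Groups were compared with lmFit and eBayes (4 residual degrees of freedom), two-sided, with Benjamini-Hochberg adjustment over all genes and a threshold of 0.05. The script was tested on simulated data. RefSeq names (GRCm38.p6) served for 32699 of 41174 probes. The number of arrays limits the precision, and since pooling of RNA is not mentioned in the labels, the p-values cover the spread of these samples, some of it possibly technical.

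The members, lists and motifs were chosen with earlier results of these data known. Values on every array are given for members that passed and, in each group, for the members with the largest and smallest difference and the smallest p; members whose probes disagree in sign or by over 1 log2 unit are named with all probes. Of each further list, members that passed and at most 3 others by p are named. Beyond these, some genes were named after their values were seen. They are genes with negative differences, other condensin and cohesin genes, and the markers Csf3r, Ngp, Camp, Dsc2 and Itga6. For Aurkb, Ccna2, Cdc25c, Foxm1, Incenp, Kif20a, Spc24 and Tpx2 no promoter was used here.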

Additional observations from a re-analysis of the deposited data

How the results depend on the processing

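Over 21 alternatives every member measured had a positive difference, and the median difference of the members ran from 0.70 to 1.42; it moved by more than the pooled SD between arrays (0.45) only with array weights, to 0.70. Against 581 genes and 2 members called, processed signals gave 226 genes and 0 members, median centring in place of loess 268 and 0, the sample channel alone after quantile normalization 313 and 1, and the sample channel after loess and Aquantile 347 and 0. The deposited table called 1 member, the filter for all 6 arrays 1 of 41, and the mean over the probes of a gene 5. Slide as a random block (correlation 0.60) left 4 genes and 0 members. Scan day as a block, which takes control 3 out of the comparison, gave 1483 and 19. Near-identical arrays averaged gave 0 genes and 0 members, with 2197 genes and 38 members at an unadjusted p under 0.05 in limma. With array weights (0.0769 for control 3 and 7.62 for mutant 3) 11551 genes and 43 members passed. Leaving out 1 array in turn gave 34 to 1483 genes and 0 to 19 members. With the replicate block, 137 genes and 0 members passed (95 of 137 higher, against 287 of 581); same-numbered arrays deviated together with correlations of 0.005, 0.019 and 0.126 only, so the numbers do not pair the samples. Kif4 passed in 11 of 21 alternatives (differences 0.99 to 1.37, adjusted p 2.15e-05 to 0.433) and Hmmr in 8 of 20 (1.02 to 2.16, adjusted p 3.41e-05 to 0.437). Sox2 turned to 0.10 with arrays scaled to one spread (adjusted p = 0.824). The cause of these changes was not tested. Signal over background limits what control 3 shows for dim probes.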
